A study of Mus musculus with 12 samples.

Results

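A set of 8 genes that mark the cortical epithelium of the thymus was followed across the genotypes of the FCG mouse, which separates gonadal sex from sex chromosomes: Foxn1, Psmb11, Prss16, Ctsl, Ly75, Cd83, Tbata and Enpep. They were listed for their function in cortical epithelial cells, and all 8 of 8 were found among the 19938 genes that had a probe set with 1 gene symbol. RNA came from thymic epithelium/stroma of pups at day 7 and was measured on 12 whole-transcript arrays, with 2 arrays from XY gonadal males (XYM), 4 from XX gonadal males (XXM), 3 from XY gonadal females (XYF) and 3 from XX gonadal females (XXF). In FCG mice, here on a C57BL/6J background, Sry is missing from the Y chromosome and is carried by an autosomal transgene, so a pup is a gonadal male when it has the transgene, whether it is XX or XY. Both female genotypes lack the transgene, and both XY genotypes carry the Y chromosome without Sry. The labels name no treatment. The tissue was depleted of thymocytes by washing and was not sorted, and nothing in the labels or methods says whether arrays stand for separate pups, so the tests speak of the spread among arrays, which may be technical.

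The cortex of the thymus is where immature thymocytes rearrange their receptor genes and are selected for receptors that can recognise self MHC molecules. Cortical epithelial cells depend on the transcription factor Foxn1, present peptides made by a proteasome and by lysosomal proteases of their own kind, and supply ligands and chemokines that thymocytes need to enter the lineage and to stay in the cortex. Positive selection of CD8+ cells is known to need the proteasome subunit encoded by Psmb11, and that of CD4+ cells the protease encoded by Ctsl.

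Values were linear intensities (signal) of 35556 probe sets, with array medians of 327.5 to 345.5. Xist was at 79.9 or less on the 5 XY arrays and at 8505 or more on the 7 XX arrays, and Sry at 2524 or more on the 6 male arrays and at 564.5 or less on the 6 female arrays, as the labels give them. A reference for background was taken from 1035 probe sets of olfactory receptors (their 95th percentile, 309.5), since these receptors are largely silent outside the nose. All 8 cortical genes lay above it on every array. So did the mean signals of all 14 other genes listed for cortical epithelium. Those of 10 of 11 genes of medullary epithelium and of all 18 thymocyte genes, Rag1 and Cd8a among them, did so too. The RNA was thus not of epithelium alone. Fewer cortical epithelial cells and less RNA per cell cannot be told apart in such RNA.

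Because Foxn1 controls Psmb11 and other genes of this group, a window of 250 bases before a RefSeq transcript start of each gene (build GRCm38.p6) was searched for GACGC, the core of the motif Foxn1 is known to bind, on both strands. A window was found for 6 of the 8 genes (Foxn1, Psmb11, Ctsl, Ly75, Tbata and Enpep). Those of 4 genes lay wholly outside the annotated gene, but all 250 bases of the Ctsl window and 175 of the 250 of Foxn1 lay inside it, so these starts are not the outermost. GACGC stood in 2 of the 6 windows, those of Psmb11 and Enpep, and in 22.6% of 32851 windows of the same length over all genes. CCAAT stood in 4 of the 6 (Foxn1, Psmb11, Ly75 and Enpep), against 33.9% of all windows. The windows of the 2 genes with a GACGC match are shown so that the matches can be seen in place, with GACGC or its reverse complement in capitals. They are, 5′ to 3′ on the gene's strand, Psmb11 at chr14:54625060-54625309 (plus strand) and Enpep at chr3:129332750-129332999 (minus strand).
Psmb11: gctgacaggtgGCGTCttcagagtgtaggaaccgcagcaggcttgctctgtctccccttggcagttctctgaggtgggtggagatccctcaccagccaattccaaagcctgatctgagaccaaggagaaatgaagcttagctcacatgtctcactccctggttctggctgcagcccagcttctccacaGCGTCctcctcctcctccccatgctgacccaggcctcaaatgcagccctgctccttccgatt
Enpep: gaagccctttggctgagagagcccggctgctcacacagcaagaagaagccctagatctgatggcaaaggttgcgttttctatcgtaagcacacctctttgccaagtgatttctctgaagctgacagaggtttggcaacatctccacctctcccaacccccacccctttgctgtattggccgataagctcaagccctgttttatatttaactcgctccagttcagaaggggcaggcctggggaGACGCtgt
In Psmb11 both matches were on the other strand, 239 to 235 and 62 to 58 bases before the start. In Enpep the match was on the gene's own strand, 8 to 4 bases before the start. A match in letters is a description and not a binding site.

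The levels of the cortical genes followed a similar order of genotypes. XYF had the highest mean signal for 7 of the 8 genes, XYM for Ly75, and XXM had the lowest mean for 8 of 8. For each of the 8 genes the brightest single array was an XYF array and the dimmest an XXM array. The dimmest was XXM array 10 for 5 genes and XXM array 6 for 3, while XXM arrays 2 and 5 had median log2 deviations of 0.00 and 0.04 from the genes' own means. The ratio of the brightest to the dimmest array was 1.18 for Prss16 and 1.71 for Cd83, with the other 6 genes in between. How many of all genes had the same order was not counted. Of the gene lists described below, the mean summed signal was also lowest in XXM for other cortical genes, MHC class II, medullary epithelium, and endothelium and pericytes. It was not lowest in XXM for the other lists.

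Foxn1, the transcription factor that makes and keeps thymic epithelium, had signals of 1427 and 1298 on the XYM arrays and of 1245, 1385, 1101 and 1388 on the XXM arrays, against 1342, 1463 and 1594 on the XYF arrays and 1427, 1265 and 1374 on the XXF arrays. The 2 brightest arrays were XYF and the dimmest XXM, but each genotype overlapped every other. Means were 1362 ± 91.5 in XYM (SD, n = 2), 1280 ± 137 in XXM (SD, n = 4), 1466 ± 126 in XYF (SD, n = 3) and 1355 ± 82.5 in XXF (SD, n = 3).

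Psmb11 encodes beta5t, the catalytic subunit of the thymoproteasome that is found in cortical epithelium. Its signals were 1481 and 1563 in XYM and 1471, 1511, 1463 and 1423 in XXM, against 1598, 1768 and 1687 in XYF and 1575, 1563 and 1431 in XXF. The 3 XYF arrays were above the other 9, and the other 3 genotypes overlapped. The XYF mean was 1684 ± 85.3 (SD, n = 3), and the means of the others ran from 1467 ± 35.9 in XXM (SD, n = 4) to 1523 ± 80.2 in XXF (SD, n = 3).

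Prss16, the thymus-specific serine protease of the endosomes and lysosomes, was at 8319 and 8115 in XYM and at 8150, 8930, 7719 and 7821 in XXM, against 8987, 9101 and 8799 in XYF and 8780, 8510 and 8361 in XXF. Of the 6 male arrays 5 were below the lowest female array, and XXM array 5, at 8930, was the exception. Males averaged 8175 ± 431 and females 8756 ± 280 (SD, n = 6 each).

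Ctsl, cathepsin L, which cleaves the invariant chain and makes peptides for MHC class II in cortical epithelium, was at 7319 and 6181 in XYM and at 7159, 7012, 6840 and 5388 in XXM, against 7565, 7476 and 5910 in XYF and 7497, 7288 and 6120 in XXF. Its signals split by array number. Arrays 9 to 12, which held 1 array of each genotype, ran from 5388 to 6181, and arrays 1 to 8 from 6840 to 7565, with no overlap and a log2 difference of -0.30. This was seen for 1 of the 8 genes. For Enpep the log2 difference was -0.23 with overlap, and for the other 6 genes it lay between -0.10 and 0.09. How many of all genes split in this way was not counted, so the split cannot be called particular to Ctsl. The labels give the array numbers and nothing on what they stand for, so what they share cannot be named. Within the sets, the sex difference of Ctsl (male minus female, log2) was -0.06 in arrays 1 to 4, -0.07 in arrays 5 to 8 and -0.06 in arrays 9 to 12. The value of arrays 5 to 8 is XXM minus XXF alone. In arrays 9 to 12 it is the mean of opposite signs, -0.18 for XXM minus XXF and 0.06 for XYM minus XYF. In arrays 1 to 4 these were -0.07 and -0.05.

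Ly75 encodes DEC-205, an endocytic receptor used as a surface marker of cortical epithelium and also made by dendritic cells. It was at 2988 and 2995 in XYM and at 2831, 2778, 2490 and 2378 in XXM, against 3179, 3014 and 2740 in XYF and 2989, 2783 and 2633 in XXF. Both XYM arrays were above all 4 XXM arrays, while the female genotypes overlapped. XYM averaged 2991 ± 4.31 (SD, n = 2) and XXM 2619 ± 220 (SD, n = 4).

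Cd83 encodes a membrane protein that keeps MHC class II on the surface of cortical epithelium by opposing the ubiquitin ligase March8, listed here as Marchf8. Its signals were 2678 and 2722 in XYM and 2619, 2834, 1729 and 2475 in XXM, against 2759, 2960 and 2936 in XYF and 2848, 2615 and 2600 in XXF. XXM array 6, at 1729, stood apart from the other 11 arrays, which ran from 2475 to 2960. With it the XXM mean was 2414 ± 480 (SD, n = 4), and the other genotypes averaged 2700 ± 31.1 in XYM (SD, n = 2), 2885 ± 110 in XYF (SD, n = 3) and 2688 ± 139 in XXF (SD, n = 3).

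Tbata, which encodes a protein known from mouse cortical epithelium to restrain its proliferation, was at 4541 and 4415 in XYM and at 4512, 4152, 4048 and 4037 in XXM, against 4788, 4302 and 4665 in XYF and 4766, 4037 and 4422 in XXF. All genotypes overlapped. Enpep, the aminopeptidase carrying the Ly51 epitope by which cortical epithelium is sorted, was the dimmest of the 8, at 1005 and 891 in XYM and at 966, 1100, 866 and 818 in XXM, against 1040, 1113 and 882 in XYF and 1064, 969 and 876 in XXF. Its genotype means, from 938 ± 125 in XXM (SD, n = 4) to 1012 ± 118 in XYF (SD, n = 3), lay closer together than the arrays of 1 genotype.

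**Figure D1:**
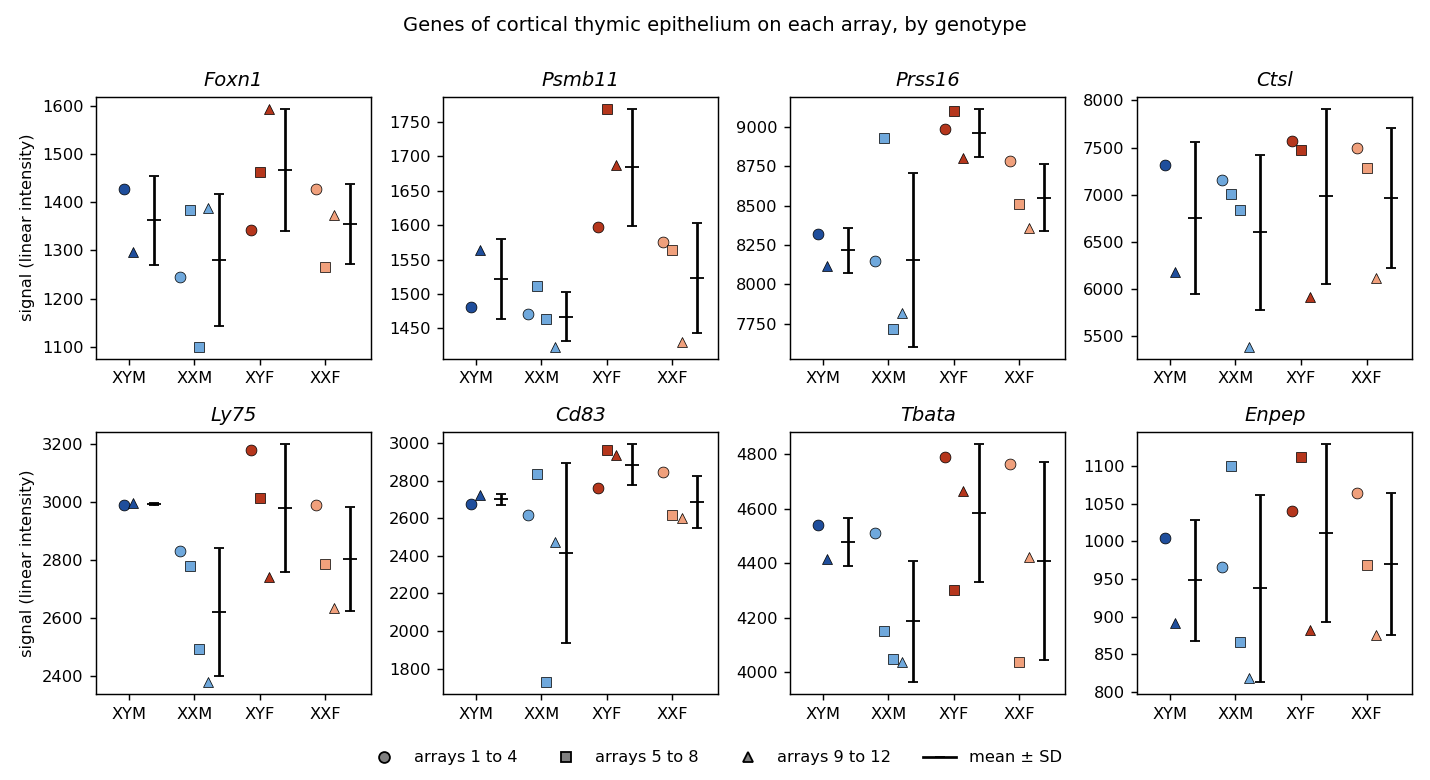
Signal (linear intensity, each panel with its own axis that does not start at 0) of the 8 cortical genes on each of the 12 arrays, by genotype. Points are arrays with a shape for each set of array numbers, and bars are mean ± SD. XXM has the lowest mean in each panel, Cd83 falls to 1729 on XXM array 6, and the triangles of Ctsl, arrays 9 to 12, lie below all its other points.

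The series' design text gives the perinatal testosterone surge and estradiol as the reason for these arrays, which makes gonadal sex the main comparison. For the 8 cortical genes, log2 signals were compared between gonadal males and gonadal females, averaged over XX and XY, in limma over all probe sets. None of the 8 passed an adjusted p under 0.05. Of all probe sets 1 passed, that of Sry, which is 0.00281% of those tested, and 1076 had an unadjusted p under 0.05, of which 0 were cortical genes. All 8 log2 differences (male minus female) were below 0, between -0.14 for Cd83 and -0.04 for Ly75, with a median of -0.08. The lowest unadjusted limma p was 0.0995, for Psmb11, with an adjusted p of 0.985.

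Psmb11 averaged 1486 ± 47.5 in males and 1604 ± 115 in females (SD, n = 6 each), a log2 difference of -0.10 ± 0.06 (SE). Its exact two-sided permutation p, with sex exchanged among arrays of the same complement (350 arrangements), was 0.0314. Prss16 had a log2 difference of -0.10 ± 0.06 (SE) and an exact permutation p of 0.0257. The exact permutation p of the other 6 genes lay between 0.146 for Cd83 and 0.554 for Ctsl. These are 8 of 16 such tests, by sex and by complement, and they are not adjusted for their number. The 95% confidence intervals of the ratio of males to females reached, over the 8 genes, from 0.771 to 1.12, so a sex difference larger than these limits was not seen and a smaller one could not be told from 0.

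The direction shared by the 8 genes was also common among other bright genes. Over all 19938 genes 47.0% were below 0 and the median was 0.01. Among the 3736 genes with a mean signal at least that of Enpep, the dimmest of the 8, a set chosen after seeing the data, 74.4% were below 0, with a median of -0.03. When the log2 values were quantile-normalized again, this share was 53.9% and the median of the 8 genes was -0.05, with all 8 still below 0. Within the sets of array numbers, 8 of 8 were below 0 in arrays 1 to 4, 6 of 8 in arrays 5 to 8, where XYM had no array and the difference is XXM minus XXF, and 8 of 8 in arrays 9 to 12, with medians of -0.08, -0.05 and -0.07.

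By sex chromosome complement (XY minus XX, averaged over gonadal sex), again none of the 8 passed in limma, where 13 probe sets of the whole table passed (0.0366%). All 8 log2 differences were above 0, between 0.02 for Ctsl and 0.14 for Cd83, with a median of 0.09. Ly75 had the lowest unadjusted limma p, 0.0646 (adjusted p of 1.00). It averaged 2983 ± 157 in XY (SD, n = 5) and 2697 ± 211 in XX (SD, n = 7), with a log2 difference of 0.14 ± 0.07 (SE) and an exact two-sided permutation p of 0.06. Psmb11 averaged 1620 ± 111 in XY (SD, n = 5) and 1491 ± 60.6 in XX (SD, n = 7), a log2 difference of 0.10 ± 0.06 (SE). Its exact permutation p was 0.02, over 300 arrangements. The exact permutation p of the other 6 genes lay between 0.147 for Tbata and 0.867 for Ctsl. For the ratio of XY to XX these intervals reached from 0.866 to 1.30.

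Bright genes as a whole went the other way by complement. Of the 3736 genes at least as bright as Enpep 30.8% were above 0, with a median of -0.03, against 53.1% of all 19938 genes. After renewed quantile normalization the share was 41.4%, and the 8 cortical genes, all above 0, had a median of 0.12. An unadjusted limma p under 0.05 was then found for 4 of them (Psmb11, Prss16, Ly75 and Tbata), with an adjusted p of no less than 0.995. Of all 35556 probe sets 1227 had such an unadjusted p in that refit. In the main fit it was 0 of the 8 genes and 908 of all probe sets, and 4 genes was the most in any refit. Within the sets of array numbers 7, 8 and 8 of the 8 genes were above 0, with medians of 0.02, 0.15 and 0.09, the arrays 5 to 8 giving XYF minus XXF alone.

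Thymocyte genes lay on the other side of 0 by complement. The summed signal of the 18 thymocyte genes lay at 53823 to 55150 with XY (5 arrays) and at 56542 to 61444 with XX (7 arrays), with no overlap. All 18 had a log2 difference (XY minus XX) below 0, with a median of -0.10, though 0 passed in limma and 1 (Rag2, a recombinase subunit of immature thymocytes, at -0.18 ± 0.07, SE) had an unadjusted p under 0.05. Of the 3736 bright genes 69.2% were below 0 by complement, and 58.6% after renewed quantile normalization. The thymocyte sums were not read after that normalization. How many of all genes separated XY from XX arrays without overlap was not counted. By gonadal sex the sums overlapped, at 53823 to 60673 in males and 54922 to 61444 in females. The part of thymocyte RNA in the complement differences of the cortical genes was not tested.

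**Figure D2:**
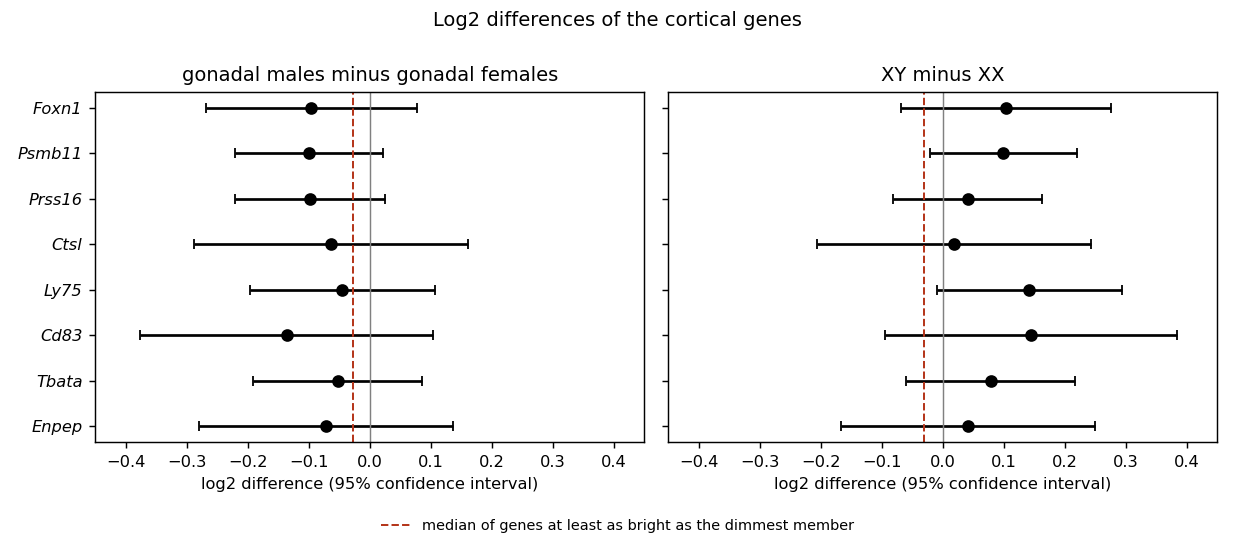
Log2 differences of the 8 cortical genes from limma, gonadal males minus gonadal females (left) and XY minus XX (right). Points are estimates, bars 95% confidence intervals, and the dashed line is the median of the 3736 genes at least as bright as Enpep (-0.03 in both panels). All points lie below 0 on the left and above 0 on the right, and every interval includes 0.

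Between pairs of genotypes 0 of the 8 genes passed the threshold in each limma contrast. XYM was above XXM for 8 of 8 genes (median log2 difference 0.07, 0.0197% of all probe sets called), and XYF was above XXF for 7 of 8 (median 0.08, 0.0169% called), Ctsl being the exception at -0.00. XXM was below XXF for 8 of 8 (median -0.08, 0.00281% called), and XYM was below XYF for 7 of 8 (median -0.09, 0.00562% called), Ly75 being the exception at 0.01. Of the 3736 genes at least as bright as Enpep, 28.2% were above 0 for XYM minus XXM and 41.8% for XYF minus XXF. Below 0 were 59.6% of them for XXM minus XXF and 72.2% for XYM minus XYF. These pairs share groups and are not independent. Leaving out 1 array moved their medians. XXM minus XXF was -0.04 without XXF array 3, -0.05 without XXM array 6 and -0.12 without XXM array 5, and 6 of 8 were below 0 without XXM array 10. XYM minus XYF was -0.02 without XYM array 9, with 6 of 8 below 0. XYM minus XXM was 0.04 without XXM array 6 and 0.14 without XYM array 9, and 5 of 8 were above 0 without XYM array 1 or XXM array 10. XYF minus XXF was 0.13 without XXF array 3. The interaction, which asks whether the sex difference in XY differs from that in XX, was above 0 for 4 genes and below 0 for 4, with 0 probe sets called in the whole table (0%) and 549 at an unadjusted p under 0.05, of which 0 were cortical genes. After renewed quantile normalization the median of XYM minus XXM was 0.15 and that of XYM minus XYF was -0.04, with 5 of 8 below 0.

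Other genes were read from lists chosen with earlier results of these data known. Of 14 further genes listed for cortical epithelium, 14 were below 0 by gonadal sex (median -0.07) and 12 were above 0 by complement (median 0.07), with 0 called in limma. The tissue was not sorted, so their signal may also come from other cells. Their direction is not separate evidence on cortical cells. The list holds the chemokines Ccl25 and Cxcl12, which draw and hold progenitors, the Notch ligand gene Dll4, which commits them to the T lineage, and the cytokine genes Il7 and Kitl. Cxcl12 had the lowest p of the list by complement, at 2576 ± 124 in XY (SD, n = 5) and 2229 ± 242 in XX (SD, n = 7), a log2 difference of 0.20 ± 0.08 (SE) with an unadjusted limma p of 0.0319. Fgfr2, the receptor for fibroblast growth factors that drive epithelial growth, followed at 0.18 ± 0.10. By gonadal sex the lowest p values were those of Eya1 and Pax1, which both act in thymus development, at -0.11 ± 0.07 and -0.10 ± 0.09 (log2, SE).

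Partners of the proteasome and protease members were read next. Of 6 other catalytic subunits, the standard subunit genes Psmb5, Psmb6 and Psmb7 and the immunoproteasome genes Psmb8, Psmb9 and Psmb10, 5 were below 0 by sex (median -0.05) and 3 above 0 by complement (median 0.01). Psmb6 had the lowest p by sex at -0.11 ± 0.10 and Psmb9 by complement at 0.10 ± 0.07 (log2, SE). Of 8 lysosomal proteases besides Ctsl, 2 were below 0 by sex (median 0.05) and 5 above 0 by complement (median 0.02). Ctss, cathepsin S, which takes the place of cathepsin L in dendritic cells and other antigen-presenting cells, was at 0.14 ± 0.09 by sex and 0.17 ± 0.09 by complement (log2, SE). Its highest signal, 744, was on an XYM array, while the XXM arrays reached 533 and the female arrays 573. How far the differences of Ctss rest on that array was not tested. None of these genes was called in limma.

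MHC class II genes, whose products the cathepsins and Cd83 act on, were below 0 by sex for 5 of 7 (median -0.04) and above 0 by complement for 6 of 7 (median 0.10), with 0 called. Ciita, the regulator that switches on MHC class II genes, had signals of 804 and 738 in XYM and of 695, 719, 627 and 667 in XXM, against 790, 835 and 818 in XYF and 804, 680 and 730 in XXF. Of the 7 XX arrays, XXF array 3 alone reached into the XY range. Its log2 difference by complement was 0.17 ± 0.06 (SE), with an unadjusted limma p of 0.0235. H2-DMa, a chaperone chain for peptide loading, had the lowest p of the list by sex, at -0.16 ± 0.10 (log2, SE).

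Lists of other cells were read in the same way, with 0 genes called in each. Of the genes of medullary epithelium 5 of 11 were below 0 by sex and 10 of 11 above 0 by complement (median 0.10), and their summed signal ran from 7568 to 8763 in XY and from 6922 to 8185 in XX. Aire, which drives medullary display of tissue antigens, had the lowest p of that list by complement, at 1200 ± 123 in XY (SD, n = 5) and 994.7 ± 79.7 in XX (SD, n = 7). The unadjusted limma p by complement was under 0.05 for 3 of the 11 medullary genes, all above 0, and for 0 of the 8 cortical genes. Over all 19938 genes it was so for 251 above 0 and 165 below 0. By sex 4 of 12 genes of dendritic cells and macrophages were below 0, 0 of 6 B cell genes, 7 of 9 of endothelium and pericytes, and 1 of 7 of fibroblasts. By complement the numbers above 0 were 10 of 12, 4 of 6, 8 of 9 and 2 of 7, in the same order.

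Over the 12 arrays, of the cortical genes' 28 pairs, 27 had a Pearson r of log2 signals above 0, with a median of 0.51, against a median of 0.02 over all pairs of 14449 genes with a mean signal of at least 200. Most other lists had such medians too, with 0.74 for fibroblasts, 0.73 for the other cortical genes, 0.67 for MHC class II, 0.61 for the other lysosomal proteases, 0.53 for endothelium and pericytes, 0.47 for proteasome subunits and 0.40 for thymocytes. For the 8 genes, taking out the genotype means left a median of 0.37, and taking out genotype and array set 0.48. The arrays share tissue preparation and hybridisation, so these values are descriptions. Ctsl and Enpep were most alike (0.84), followed by Foxn1 and Cd83 (0.81), and Foxn1 and Ctsl were the only pair below 0 (-0.18). Taking out genotype and array set left 0.45 for Ctsl and Enpep and 0.75 for Foxn1 and Cd83, and Prss16 and Enpep were then highest (0.94). The residual SD of log2 signal within genotypes was lowest for Psmb11 (0.06) and Prss16 (0.06) and highest for Cd83 (0.20) and Ctsl (0.18), against a median of 0.15 over all probe sets.

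**Figure D3:**
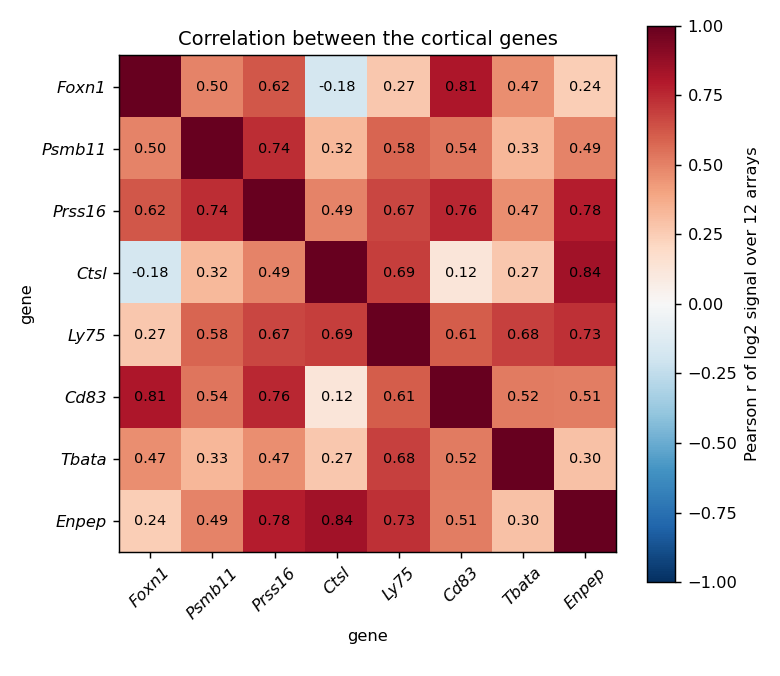
Pearson r of log2 signal over the 12 arrays for each pair of the 8 cortical genes (colour scale from -1 to 1). Of the 28 pairs 27 are above 0, with the highest value for Ctsl and Enpep (0.84) and the lowest for Foxn1 and Ctsl (-0.18).

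The mean log2 signal of the 8 genes, set against that of each list over the 12 arrays, had the highest correlation with MHC class II, at a Pearson r of 0.91 and a Spearman rho of 0.90, with 0.87 without the 2 arrays farthest from the median and 0.89 after taking out genotype means. For the other cortical genes and for the proteasome subunits the value after taking out genotype means was 0.88 each. Over the 12 arrays r was 0.87 for the other cortical genes (rho 0.91, 0.79 without the 2 arrays) and 0.75 for the proteasome subunits. It was 0.62 for medullary epithelium, 0.32 for the other lysosomal proteases, 0.25 for dendritic cells and macrophages, -0.25 for thymocytes and -0.49 for B cells, of whose 6 genes 1 had a mean signal above the olfactory receptor reference. After taking out genotype means the value for thymocytes was 0.16, and without the 2 farthest arrays that for the other lysosomal proteases was 0.14. XXM arrays 6 and 10 were low for 7 of the 8 cortical genes each, with median log2 deviations of -0.14 and -0.12 from the genes' own means, whereas XXF array 3 was high for 8 of 8 (0.10) and XYF arrays 4 and 8 for 7 each (0.10 and 0.13). Over all genes the median deviation was 0.04 on XXM array 6 and 0.03 on XXM array 10.

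**Figure D4:**
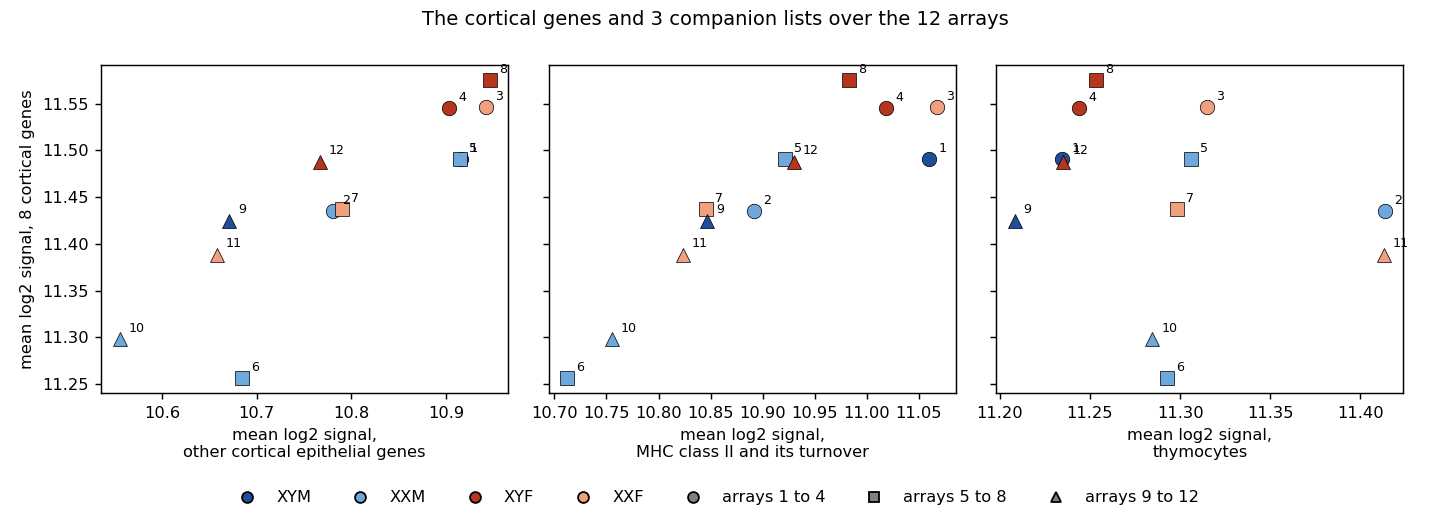
Mean log2 signal of the 8 cortical genes (vertical axis) against that of the other cortical genes, of MHC class II and its turnover, and of thymocytes (horizontal axes). Each point is an array with its number, coloured by genotype and shaped by set of array numbers. The points rise together in the left and middle panels (r of 0.87 and 0.91) and not in the right panel (r of -0.25).

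The genes most like each cortical gene over the 12 arrays were sought among 14448 others with a mean signal of at least 200. For Foxn1 they were Mfsd12, Cdr2l and Smad1 (Pearson r of 0.97, 0.97 and 0.96), for Ctsl Zc3h12c, Fam83b and Dhx29 (0.98, 0.98 and 0.97), and for Enpep Lamp2, Ank3 and Cth (0.96, 0.95 and 0.95). Lamp2 encodes a membrane protein of lysosomes. For Tbata they were Npc2, H2-Q4 and Il34 (0.94, 0.93 and 0.92), for Ly75 Tmem102, Fmnl2 and Grm8 (0.93, 0.91 and 0.91), and for Prss16 Dnah9, Pepd and Cachd1 (0.93, 0.91 and 0.90). Psmb11 had the weakest likeness, to Fam89a, Diras2 and Dnaaf2 (0.84, 0.82 and 0.82). All these values are the highest of 14448 over 12 arrays, and how high the top r of unrelated genes would be was not tested. Of the 24 genes so named, 1 was on a cortical list: Dll4, the gene most like Cd83.

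Cd83 and Dll4 had an r of 0.96, followed for Cd83 by Cdc42ep4 (0.95) and Med26 (0.92). Dll4 was at 1750 and 1690 in XYM and at 1672, 1937, 1260 and 1638 in XXM, against 1721, 1825 and 1820 in XYF and 1772, 1771 and 1665 in XXF. Like Cd83 it was lowest on XXM array 6. Without that array, left out after the data were seen, r was 0.76 for Dll4, 0.81 for Cdc42ep4 and 0.66 for Med26.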

How the data were processed

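The authors deposited linear intensity values of 35556 probe sets on 12 Affymetrix mouse Gene 1.0 ST arrays. Per the submitters' notes the tools were PLIER and Affymetrix Expression Console 1.1, whereas the study's methods name RMA with quantile normalization; the values were used as deposited, and their log2 was taken here. Summary and normalization settings can shift bright against dim probe sets, so a renewed quantile normalization was tried. Symbols came from the platform annotation, updated through RefSeq (GRCm38.p6). A single symbol belonged to 21789 probe sets, several to 1621 and none to 12146. Each of the 8 genes had 1 probe set with a single symbol. Other genes were read from their brightest.

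Values were fitted in limma 3.58.1 (R 4.3.3; lmFit, eBayes) with 1 mean for each genotype, which share 1 estimate of the spread. Benjamini-Hochberg adjustment was over all probe sets, at a threshold of 0.05. Exact permutation tests were two-sided within the other factor. Scripts were tested on simulated data. Means ± SD are of linear signal. The cortical genes and the lists were chosen with earlier results of these data known. Named genes are the 8 cortical genes, the 3 most alike to each, and from companion lists those with the lowest p by sex and by complement; of these, genes of lists that no result turned on are given as counts. Rag1, Cd8a, Ccl25, Il7, Kitl, Lamp2 and the proteasome subunits were named as examples outside that rule. Alternatives were normalization, an offset of 16, a limit of 200 on mean signal, probe sets with 1 symbol, additive and two-way ANOVA models, moderation, array weights, array-number sets and leaving out each array. The number of arrays limits the precision. Versions of Python tools were numpy 2.4.6, pandas 2.3.3 and matplotlib 3.10.9.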

Additional observations from a re-analysis of the deposited data

Results flagged for a closer look

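Cd83 stood apart on XXM array 6. Among the 6 arrays of gonadal males its signal of 1729 there was the lowest, with the next at 2475, and the gap was 0.675 of the whole range. Among the 7 XX arrays the same value of 1729 lay apart from the rest, with a gap of 0.667 of the range. These were 2 of 40 groups tested for a lone array, and both flags are the same value. Chance flags about 1 in 20, but the groups share arrays, so 2 of 40 cannot be set against that rate. Without this array the log2 difference of Cd83 was -0.06 by gonadal sex (male minus female) and 0.07 by complement (XY minus XX), against -0.14 and 0.14 with it. The array was also low for 6 other cortical genes and for Dll4.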

How the results depend on the processing

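No cortical gene was called by gonadal sex, complement, interaction or a pair of genotypes in limma or the methods' two-way ANOVA under any alternative; the lowest adjusted p was 0.444 by sex and 0.653 by complement. By sex all 8 genes stayed below 0 in all 21 refits, with medians of -0.11 to -0.05 (-0.06 without XXF array 3, -0.05 without XYM array 9); by complement 6 to 8 stayed above 0, with medians of 0.06 to 0.12. In the two-way ANOVA the unadjusted p by sex was under 0.05 for Psmb11 and Prss16 (lowest 0.0251). By complement the ANOVA gave this for Psmb11 and Ly75 (lowest 0.0250). Over all probe sets it was under 0.05 for 1048 by sex and 1071 by complement. Within arrays 5 to 8 the sex difference was 0.022 for Tbata and 0.0101 for Enpep, and within arrays 1 to 4 the complement difference of Cd83 was -0.0069. Leaving out each array gave complement differences of -0.043 to 0.079 for Ctsl and -0.0027 to 0.089 for Enpep. The interaction changed sign for all genes but Psmb11 and Ly75. Without each array it ran from -0.087 to 0.052 for Foxn1, -0.085 to 0.16 for Ctsl, -0.069 to 0.17 for Cd83, -0.018 to 0.10 for Tbata and -0.13 to 0.051 for Enpep. It was 0.016 for Foxn1 and 0.060 for Prss16 after renewed quantile normalization, -0.023 for Ctsl with array weights, and -0.018 for Tbata and 0.024 for Enpep with the array-number sets as a block. The causes were not tested.

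Counts of probe sets called in limma also moved. By sex 2 were called with trend and robust moderation, and 1 to 4 without each array (4 without XYF array 8, 3 without XYM array 9, 2 without XYM array 1 or XYF array 12). By complement 8 were called by the methods' two-way ANOVA and 8 to 14 without each array (8 without XYM array 1, XXF array 3 or 11, XYF array 4, or XXM array 5 or 6). The interaction gave 0 to 2, XXM minus XXF 1 to 2, XYM minus XYF 2 to 5 and XYM minus XXM 6 to 11 without each array. The highest value of each came without XYF array 8, which for the interaction was shared with XYM array 9 and for XYM minus XYF with XYF array 12. XYM minus XYF gave 1 after quantile normalization, with an offset of 16, with a mean signal of at least 200, with 1 symbol, by ANOVA and with the block. XYF minus XXF gave 10 with the block, and XYM minus XXM 4 with 1 symbol. A mean over probe sets of a gene could not be tried for the 8 genes, which had 1 each. XYM had 2 arrays, so a fit without 1 of them takes the spread of the lone array from the other genotypes.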
